A study of Mus musculus with 4 samples.

Results

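The genes described are 59 transcripts of the cell division cycle in mouse DN3 thymocytes, 29 that act in DNA replication (S phase) and 30 that act in G2 and mitosis. They were taken by name from a list that was chosen with earlier results of these data known. All 59 were found among the 23285 genes of the deposited table. RNA had been sequenced from thymocytes sorted at the DN3 stage, labelled strain C57BL/6, 16 weeks after fetal liver donor cells were given to irradiated recipients. The donor cells were either wild type (WT) or of the Gata3(g/g) genotype, which the labels call a hypomorph of the transcription factor GATA3, and each genotype had 2 libraries. All libraries therefore share transfer into an irradiated host, and the labels give no genotype, age or sex for the host and do not say whether animals were pooled. Nothing says that replicates came from separate animals, so p-values concern the spread among these libraries. The sequence identifiers place both replicates 1 in 1 sequencing run (run 1) and both replicates 2 in another (run 2).

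At the DN3 stage, thymocytes assemble the beta chain gene of the T cell receptor by recombination. Most of these cells rest in G1, and those that make a working beta chain pass beta-selection and begin a burst of rapid divisions. In a dividing cell, E2F factors turn on genes of replication at the G1 to S transition, and the MCM helicase is loaded on origins and then activated to open the DNA. Genes of G2 and mitosis rise later through the MuvB complex with B-MYB and FOXM1, and their products build the spindle, attach chromosomes at kinetochores and trigger chromosome separation. In RNA from a bulk sort, fewer cycling cells and less RNA per cycling cell cannot be told apart.

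The libraries held 21159909 and 14331705 fragments in WT replicates 1 and 2, and 26901913 and 18035342 in Gata3(g/g) replicates 1 and 2, so both run 1 libraries were the deeper of their genotype. All 10 listed markers of DN3 and T lineage cells were at 1 FPKM or more in every library (FPKM adjusts fragments for the length of the transcript and the depth of the library). The 5 markers of the double-positive stage summed to 24.9 and 26.3 FPKM in WT and to 28.0 and 26.4 FPKM in Gata3(g/g), mostly Ccr9 (15.9 to 22.5 FPKM), with Cd4 at most 0.492 FPKM. Cd8b1 stood at 3.63 and 1.11 FPKM in WT and at 7.61 and 7.22 FPKM in Gata3(g/g), and Cd8a at 0.674 and 0.592 against 1.71 and 1.37 FPKM. Lists for other cells summed to 30.4 to 39.4 FPKM for 7 B cell markers, mostly Cd79b (29.1 to 37.0 FPKM), to 7.54 to 12.9 FPKM for 7 stromal markers, mostly Epcam (7.13 to 12.7 FPKM), and to at most 0.334 FPKM for 4 NK cell markers. The 7 myeloid markers summed to 13.3 and 10.7 FPKM in WT and to 22.8 and 17.4 FPKM in Gata3(g/g). Lyz2 stood at 9.93 and 4.20 against 18.7 and 13.6 FPKM. Cd68 did not follow it, at 2.96 and 6.02 against 3.27 and 2.96 FPKM. The other listed myeloid markers were each at most 0.547 FPKM. The part of these markers in the genotype differences below was not tested. Gata3 RNA was higher in the libraries labelled as the hypomorph. WT replicates stood at 62.4 and 58.5 FPKM and Gata3(g/g) replicates at 119.9 and 96.1 FPKM. The edgeR adjusted p was 0.00165 when the run was a term and 0.965 when it was not. The labels do not say how the genotype alters the transcript. Every direction below is between the libraries labelled WT and those labelled Gata3(g/g). A pair of gene lists separated the runs: 9 erythroid markers summed to 1.81 and 2.45 FPKM in run 1 (WT, then Gata3(g/g)) and to 463 and 591 FPKM in run 2, with Hba-a1 at 0 in both run 1 libraries. The 8 immediate-early genes summed to 661 and 464 FPKM in run 1 and to 42.3 and 53.4 FPKM in run 2.

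All 59 genes passed the filter for testing, a mean of at least 1 FPKM, and each had between 161 and 59813 fragments in a library. Mean levels ran from 2.35 FPKM for Nek2, a centrosome kinase, to 264 FPKM for Pcna, the sliding clamp of the replication fork. The S-phase genes had median levels of 39.8 and 27.6 FPKM in WT replicates 1 and 2, and of 36.8 and 34.7 FPKM in Gata3(g/g) replicates 1 and 2. The medians of the G2/M genes, in the same order, were 22.6, 20.97, 20.6 and 23.7 FPKM. The S-phase genes took 0.668% and 0.628% of all fragments in run 1 (WT, then Gata3(g/g)) against 0.490% and 0.521% in run 2. The G2/M genes took 0.515% and 0.539% in run 1 against 0.684% and 0.764% in run 2. By share of fragments the runs thus differed in opposite directions for the 2 phases, in both genotypes. By median level, the G2/M genes in WT went the same way as S phase, from 22.6 FPKM in run 1 to 20.97 FPKM in run 2. Mki67 had the highest level of the mitotic genes, and without it the G2/M share was 0.347% and 0.357% in run 1 and 0.384% and 0.432% in run 2.

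**Figure D1:**
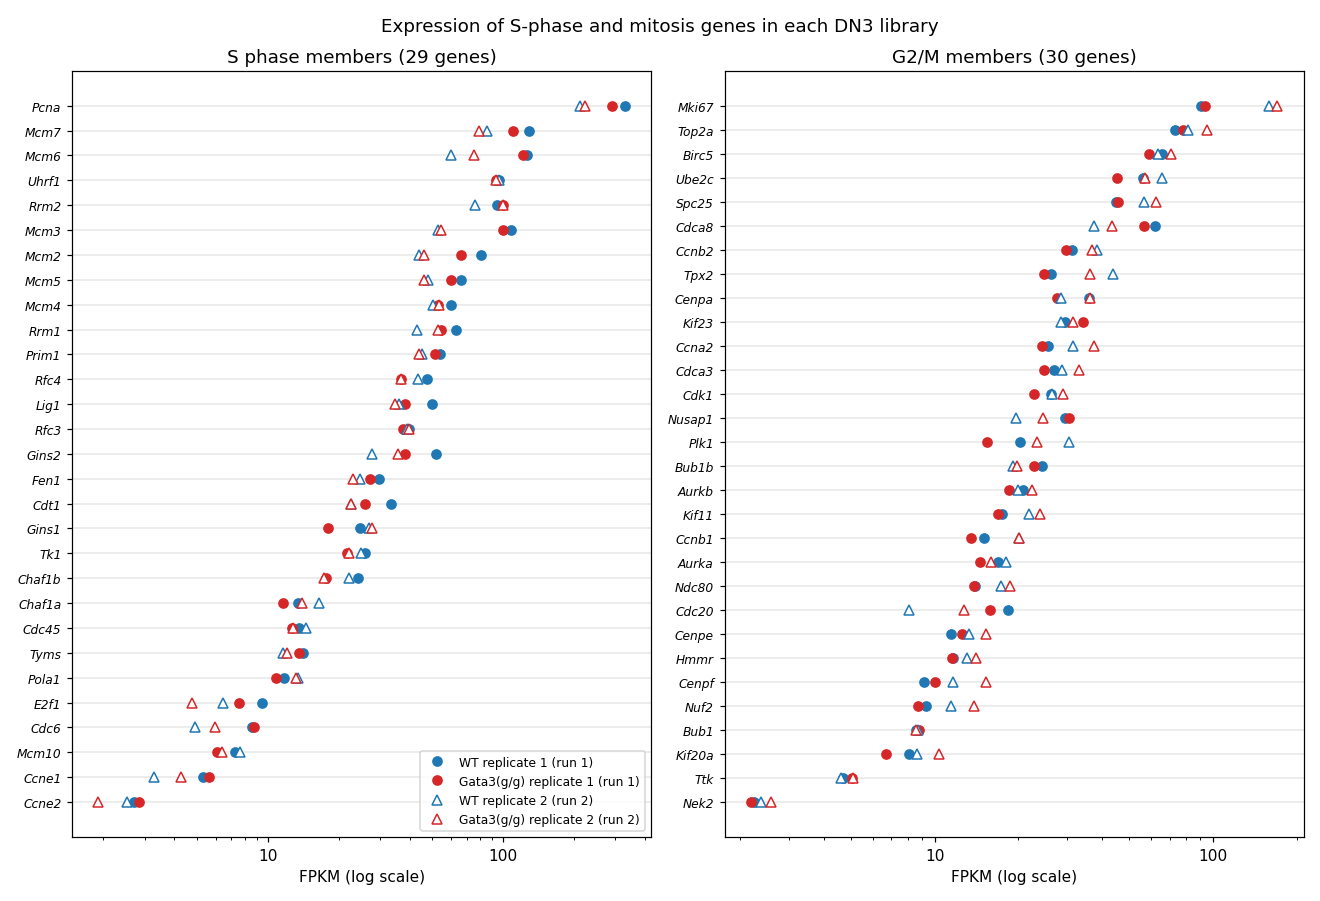
FPKM (log axis) of each of the 59 genes in the 4 libraries, S-phase and G2/M genes apart, ordered by mean level. Each point is 1 library, and the levels run from a mean of 2.35 FPKM for Nek2 to 264 FPKM for Pcna.

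No S-phase or mitosis gene passed the test between the genotypes. The differences were small: with the run as a term, they ranged from -0.39 to 0.26 on the log2 scale, with a median absolute size of 0.10 against 0.18 over the 10224 genes tested. The S-phase genes had a median difference of -0.09 and the G2/M genes of 0.04 (Gata3(g/g) minus WT; all genes 0.01). With a library left out, and no block, 1 genotype comes from 1 run and the other from both. The run change described below then enters the difference, so such fits cannot tell whether a genotype direction holds. Leaving out WT replicate 1 gave 0.049 and -0.028, and leaving out Gata3(g/g) replicate 2 gave -0.15 for the G2/M genes. The same limit applies to the leave-out values of single genes below. By edgeR's quasi-likelihood test with genotype alone, 0 of 59 passed a Benjamini-Hochberg adjusted p of 0.05, as did 0% of all genes tested, and 0 of 59 had an unadjusted p under 0.05. When the replicate number, which marks the shared run, was added as a block, 6.9% of all genes passed (3.9% higher and 2.99% lower in Gata3(g/g)) and again 0 of 59 of these. At an unadjusted p under 0.05 the blocked fit named 4 of 59 (6.78%; Plk1, Chaf1b, E2f1 and Rfc4), against 20.9% of all genes. DESeq2 and limma called 0 of 59 with or without the block. In the authors' deposited table all 59 were tested, none had a q-value under 0.05, and the smallest was 0.185 for Chaf1b, while 4.10% of all genes tested there passed.

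The intervals bound what these libraries allow. In the blocked fit the 95% confidence interval lay within ±0.5 log2 units for 46 of 59 genes, 20 of 29 in S phase and 26 of 30 in G2/M, and no interval went below -0.69 or above 0.63. Among the 13 genes whose interval passed that bound, Plk1, Chaf1b, E2f1 and Rfc4 had intervals that left out 0. The fit rests on 1 residual degree of freedom per gene and a spread pooled over all genes.

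**Figure D2:**
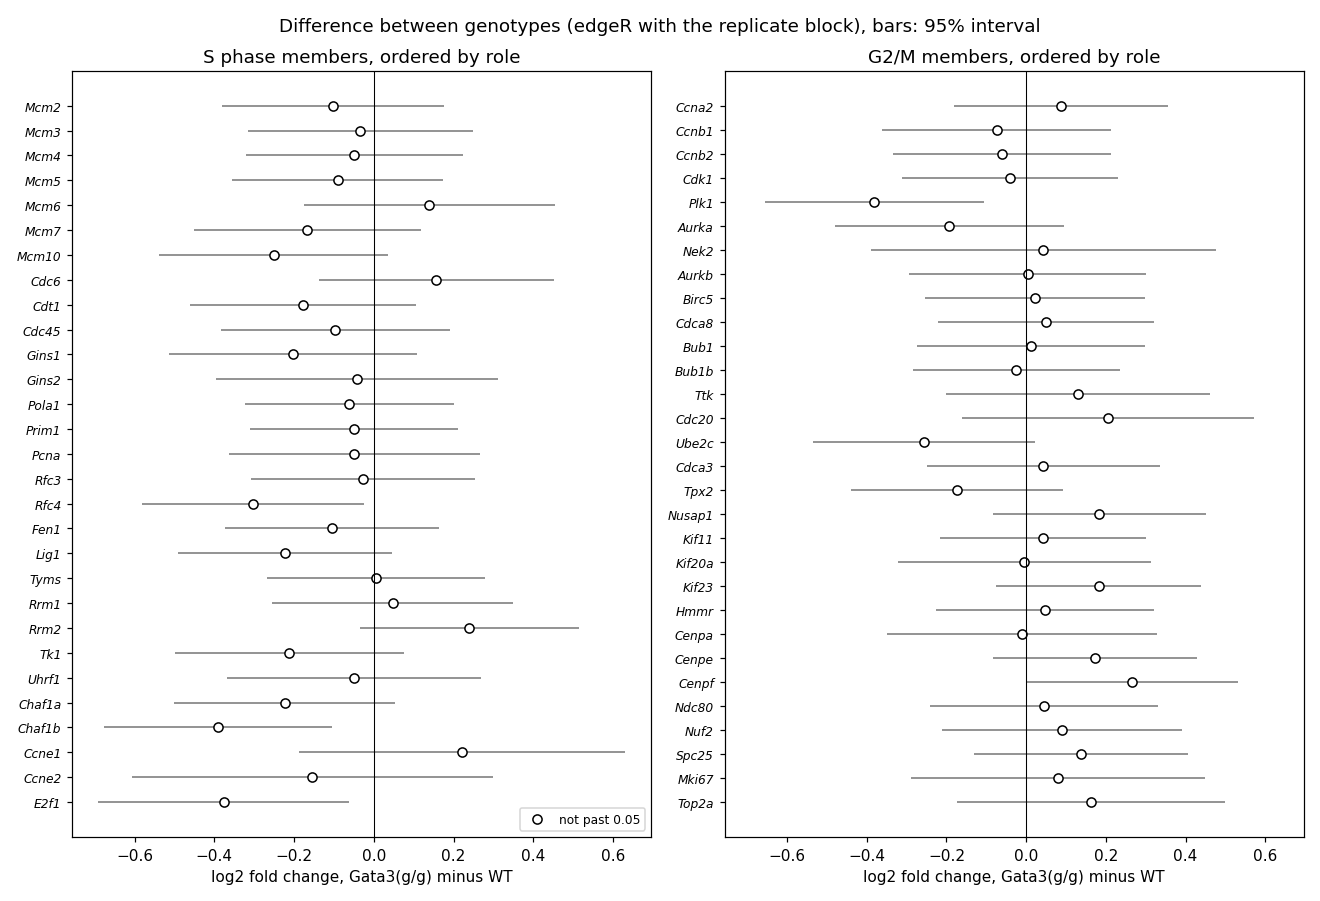
Log2 difference between Gata3(g/g) and WT for each of the 59 genes from the edgeR fit with the replicate block, with 95% confidence intervals. The points lie between -0.39 and 0.26, and no gene passed the adjusted p of 0.05.

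Within each run, 1 Gata3(g/g) library can be set beside 1 WT library. In run 1 the difference was negative for 44 of 59 genes and in run 2 for 23, against 5090 and 4924 of all 10224 genes tested. The S-phase median was -0.16 in run 1 and -0.02 in run 2, and the G2/M median was -0.06 in run 1 and 0.13 in run 2. Differences were negative in both runs for 21 genes (15 in S phase, 6 in G2/M), against 31.3% of all genes, and positive in both for 13 (3 and 10), against 33.1%. The largest class was negative in run 1 and positive in run 2, with 23 of 59 genes (39%), against 18.1% of all genes, and 2 were the reverse, against 16.8%. The FPKM ranges of the genotypes did not overlap for 10 of 59 (16.9%), against 29% of all genes. Of these 10, Mcm10, Cdc45, Rfc4, Tk1, Uhrf1, Chaf1b and Aurka were lower in both Gata3(g/g) libraries than in both WT libraries (background 14.8%), and Rrm2, Ttk and Kif23 were higher (background 14.2%).

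**Figure D3:**
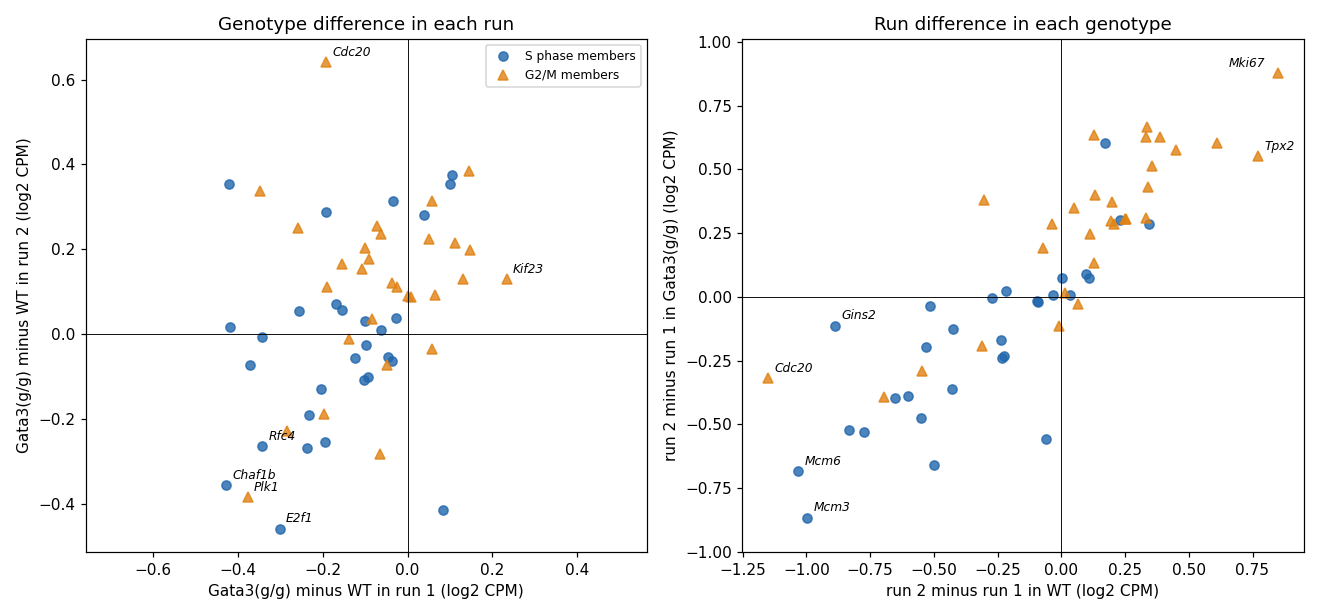
Log2 CPM difference between Gata3(g/g) and WT in run 1 (x axis) and in run 2 (y axis), on the left, and the run 2 minus run 1 difference in WT (x axis) and Gata3(g/g) (y axis) on the right, 1 point per gene. On the left, 23 of 59 genes are negative in run 1 and positive in run 2, and on the right Mki67 is at 0.85 and 0.88. Mcm3 is at -0.997 and -0.865.

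Between the runs, by contrast, 24 of 59 genes (40.7%) passed the edgeR test with genotype as a term, against 34.8% of all genes, a share near the background. The directions differed by phase. Among S-phase genes 11 of 29 (37.9%) were lower in run 2 and 1 (3.45%) was higher, where the background was 17.3% lower and 17.5% higher. Among G2/M genes 9 of 30 (30%) were higher in run 2 and 3 (10%) were lower. The median change from run 1 to run 2 was -0.24 for S phase and 0.26 for G2/M (all genes -0.01). It was -0.23 in WT and -0.13 in Gata3(g/g) for S phase, and 0.16 and 0.31 for G2/M. In 20 of 29 S-phase genes both genotypes were lower in run 2, and in 21 of 30 G2/M genes both were higher. The share for all genes was not computed. Over all genes the run change in WT correlated with that in Gata3(g/g) at 0.754, so agreement between the genotypes was not particular to these genes. The FPKM of the runs did not overlap for 43 of 59, against 60.7% of all genes: 17 S-phase genes were lower in run 2 (31.7% of all genes were) and 19 G2/M genes were higher (29% of all genes were).

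What else differed between the runs besides the sequencing cannot be told apart from it. The erythroid sum and the immediate-early sum given above moved with the run, as did depth, and their part in these changes was not tested. Fewer genes passed with limma on log2(FPKM + 1), 8 of 59, and with the run as the only term, 2. Fewer of all genes passed in those fits too (counts are given under the processing). All 24 kept their direction in both fits and when 1 library was left out. Without the filter on low values, the median was -0.17 for all genes, -0.40 for S phase and 0.10 for G2/M. In that fit 15 S-phase genes were lower, and 3 G2/M genes were higher and 4 lower. The shares of all genes by direction were not computed for it, and its median over all genes was itself negative. These counts are therefore not a result about the members.

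**Figure D4:**
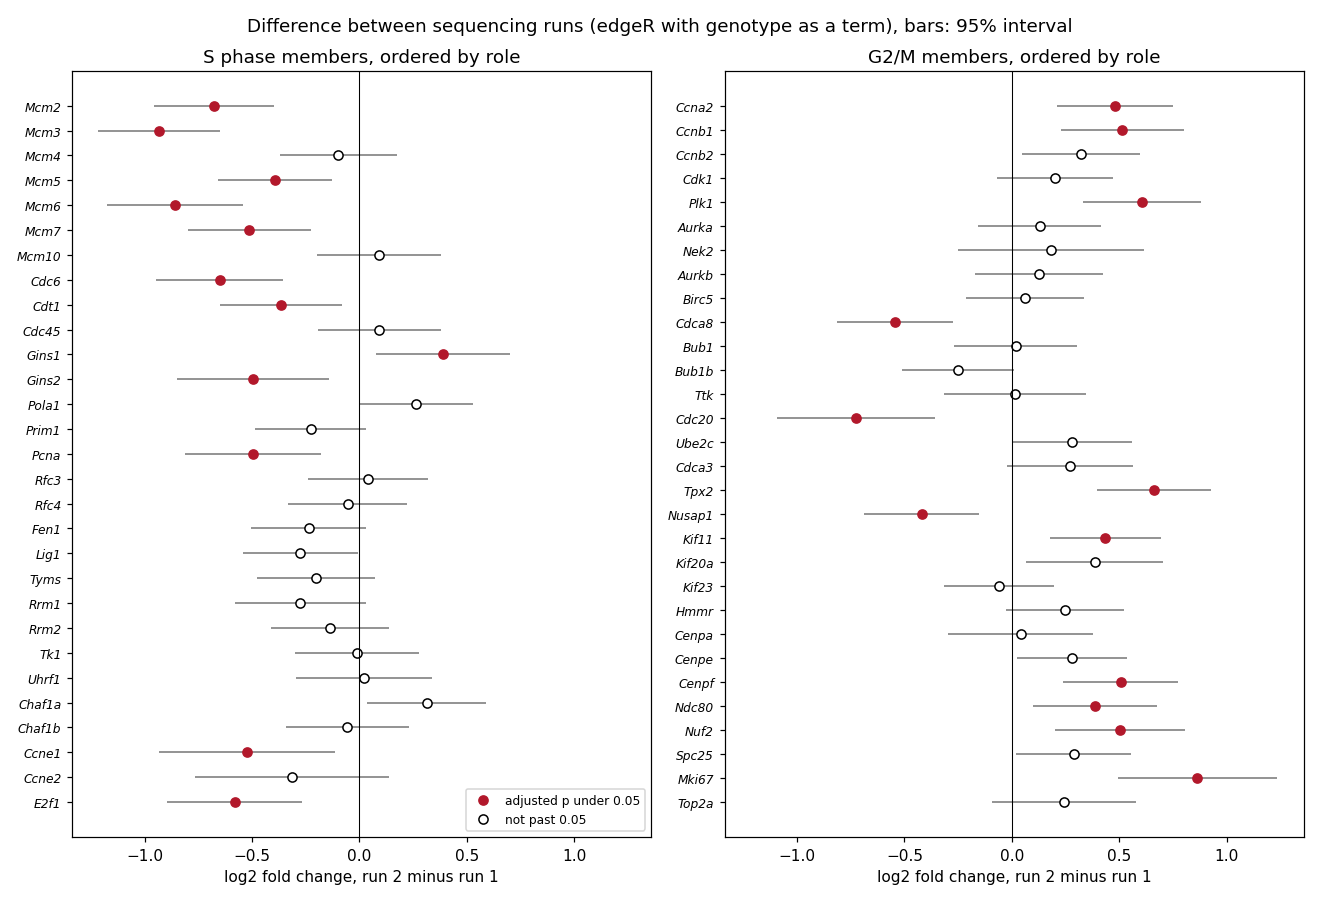
Log2 change from run 1 to run 2 for each of the 59 genes from the edgeR fit with genotype as a term, with 95% confidence intervals. Of the S-phase genes 11 passed lower and 1 higher, and of the G2/M genes 9 passed higher and 3 lower.

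The MCM helicase, a ring of 6 subunits (Mcm2 to Mcm7) that unwinds DNA at the fork, had 5 subunits that fell between the runs. In the values that follow, 4 FPKM levels in a row are WT replicates 1 and 2, then Gata3(g/g) replicates 1 and 2. Mcm3 stood at 108, 52.7, 99.3 and 54.2 FPKM and fell by 0.93 on the log2 scale from run 1 to run 2 (SE 0.134, edgeR adjusted p = 8.07e-05). Mcm6 stood at 126, 60.2, 122 and 75.4 FPKM and fell by 0.86 (SE 0.150, adjusted p = 0.000411). Mcm2 stood at 80.1, 43.9, 66.2 and 45.9 FPKM and fell by 0.68 (SE 0.132, adjusted p = 0.00101). In all 3 the run 2 libraries lay below the run 1 libraries with no overlap, while the genotypes overlapped. Mcm7, the most abundant subunit, stood at 128, 85.7, 110.1 and 78.9 FPKM and Mcm5 also fell. Mcm4 was the exception within the ring, at 60.3, 50.5, 53.0 and 53.4 FPKM with an adjusted p of 0.587. Summed over the ring, the levels were 569 and 510 FPKM in run 1 and 341 and 354 FPKM in run 2. The subunits spanned 53.0 to 128 FPKM in run 1 and 43.9 to 85.7 FPKM in run 2. Mcm10, which is not part of the ring but helps to activate it, had the largest genotype difference of the group, at 7.28, 7.64, 6.10 and 6.39 FPKM, a log2 difference of -0.25 (SE 0.136, adjusted p = 0.314 with the block).

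Licensing factors load the helicase and firing factors switch it on. Cdc6, a loader, stood at 8.56, 4.88, 8.69 and 5.97 FPKM and fell by 0.65 between the runs (SE 0.139, adjusted p = 0.002), and Cdt1, its partner in loading, fell too. Gins2 and Gins1 encode subunits of the same GINS complex, a part of the active helicase, and went opposite ways. Gins2 stood at 52.0, 27.6, 38.2 and 35.8 FPKM and fell by 0.50 (SE 0.167, adjusted p = 0.0302), a change of -0.89 in WT and -0.11 in Gata3(g/g). Gins1 stood at 24.6, 27.0, 18.03 and 27.7 FPKM and rose by 0.39 (SE 0.147, adjusted p = 0.0494). It did not pass with DESeq2, with limma, with scaling by total fragments or without the filter on low values. Most of the Gins1 rise lay in the Gata3(g/g) libraries, whose replicate 1 was the lowest of the 4, and its genotype difference was -0.20 with the block (adjusted p = 0.473). Without the block it ranged from -0.51 to 0.10 as each of the 4 libraries was left out in turn. Cdc45, the remaining helicase cofactor, did not pass in either comparison.

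Of the 7 fork genes, Pcna alone passed between the runs. It stood at 329, 212, 291 and 224 FPKM and fell by 0.50 (SE 0.149, adjusted p = 0.017), with both run 2 libraries below both of run 1. Rfc4, a subunit of the loader that places the clamp, had the largest genotype difference of the group, at 47.4, 43.6, 36.8 and 36.8 FPKM. Both Gata3(g/g) libraries lay below both WT libraries, by 0.34 in run 1 and 0.26 in run 2 on the log2 scale, and the blocked estimate was -0.30 (95% interval -0.58 to -0.03, adjusted p = 0.196). All 7 fork genes had a negative genotype difference in run 1 and 5 did in run 2, against 5090 and 4924 of all 10224 genes tested. The other polymerase, primase, loader, flap nuclease and ligase genes (Pola1, Prim1, Rfc3, Fen1 and Lig1) had mean levels of 12.3 to 48.4 FPKM and passed neither comparison.

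Of the 7 genes of nucleotide supply and of chromatin behind the fork, 0 passed between the runs or the genotypes. Rrm2, the regulatory subunit of ribonucleotide reductase, was the most abundant supplier at 94.2, 76.2, 99.9 and 99.6 FPKM. Both Gata3(g/g) libraries lay above both WT libraries, and the blocked difference was 0.24 (95% interval -0.04 to 0.51, adjusted p = 0.314). Without the block it was 0.36 when WT replicate 1 was left out and 0.10 when WT replicate 2 was. Uhrf1, which brings the maintenance methyltransferase to newly made DNA, varied little at 96.4, 96.4, 93.4 and 92.9 FPKM. Chaf1b, a subunit of the histone chaperone CAF-1 at chr16:93883901-93906106 on mm10, had the most negative genotype difference of all 59 genes. It stood at 24.0, 22.0, 17.6 and 17.4 FPKM, with a within-run difference of -0.43 in run 1 and -0.35 in run 2. The blocked estimate was -0.39 (SE 0.135, 95% interval -0.68 to -0.11), with an adjusted p of 0.0972 over all genes.

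The G1/S regulators were the least abundant S-phase group, with means from 2.49 FPKM for Ccne2 to 7.03 FPKM for E2f1. E2f1, the activating E2F factor, stood at 9.39, 6.47, 7.53 and 4.74 FPKM. It fell by 0.58 between the runs (SE 0.149, adjusted p = 0.00651), and its blocked genotype difference was -0.38 (SE 0.148, adjusted p = 0.149), with the Gata3(g/g) library lower in each run. Without the block that difference ranged from -0.73 to -0.07 as each of the 4 libraries was left out, and the run change enters that range. Ccne1, the cyclin partner of CDK2 at S-phase entry, stood at 5.30, 3.29, 5.61 and 4.25 FPKM and fell by 0.52 between the runs (SE 0.193, adjusted p = 0.0453).

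Promoter sequence was read for the members from RefSeq (GRCm38.p6, the mm10 assembly), which held 51 of the 59 genes in 56 start-site windows of 250 bases upstream. Windows were searched on both strands for E2F sites (TTTCCCGC, TTTCGCGC, TTTGCCGC or TTTGGCGC), for the CHR element bound by MuvB (TTTGAA or TTCGAA) and for the CCAAT box. An E2F site was in 7 of 30 S-phase windows (23.3%) and 1 of 26 G2/M windows (3.85%), against 3.65% for tested genes and 1.86% of all 32851 windows. A CHR was in 16.7% of S-phase windows and 30.8% of G2/M windows, against 12.1% for tested genes and 17.1% of all. CCAAT was in 56.7% and 84.6%, against 36.0% and 33.8%. Of the 7 S-phase genes with an E2F site, 4 fell between the runs (Mcm5, Mcm6, Mcm7 and Cdc6), as did 6 of the 18 without. The 3 windows below, with E2F matches in capitals, are of replication genes picked because they hold a site and fell. They are Mcm6 at chr1:128359706-128359955 (minus strand), Mcm5 at chr8:75109259-75109508 (plus strand) and Cdc6 at chr11:98907901-98908150 (plus strand). Each is read 5′ to 3′ up to the base before the RefSeq start site. The Cdc6 locus that the authors deposited begins at 98907889, so the Cdc6 window lies inside that locus.
Mcm6: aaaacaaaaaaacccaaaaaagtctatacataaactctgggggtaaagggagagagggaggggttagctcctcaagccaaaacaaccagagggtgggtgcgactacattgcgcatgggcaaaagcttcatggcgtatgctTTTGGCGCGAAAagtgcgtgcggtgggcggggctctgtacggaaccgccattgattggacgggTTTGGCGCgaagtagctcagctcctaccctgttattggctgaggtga
Mcm5: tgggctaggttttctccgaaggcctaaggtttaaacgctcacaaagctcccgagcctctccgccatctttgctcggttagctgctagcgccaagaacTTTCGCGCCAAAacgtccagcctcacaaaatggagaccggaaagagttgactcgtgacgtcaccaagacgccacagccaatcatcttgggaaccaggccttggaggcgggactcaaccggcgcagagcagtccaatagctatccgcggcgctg
Cdc6: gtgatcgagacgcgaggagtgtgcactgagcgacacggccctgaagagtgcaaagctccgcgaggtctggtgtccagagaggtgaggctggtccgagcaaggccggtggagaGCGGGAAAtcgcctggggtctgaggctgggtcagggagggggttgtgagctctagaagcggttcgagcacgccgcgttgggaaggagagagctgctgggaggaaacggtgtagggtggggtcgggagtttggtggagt
Mcm6 holds 3 matches: the 12 capitals of its first stretch are a pair that overlap on opposite strands, and the second stretch is a further match. Mcm5 holds an overlapping pair of the same kind, and Cdc6 holds 1 match on the strand opposite to the one printed. A match is a description of the letters, not a site shown to be bound.

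Among the mitotic cyclins and kinases, 3 of 7 rose between the runs and the other 4 stood higher without passing. Plk1, the Polo kinase of mitotic entry at chr7:122159437-122169875 on mm10, stood at 20.3, 30.3, 15.5 and 23.4 FPKM and rose by 0.61 (SE 0.130, adjusted p = 0.00199). Ccnb1, the cyclin of the mitotic CDK1 kinase, stood at 15.1, 20.1, 13.5 and 20.1 FPKM and rose by 0.51 (SE 0.136, adjusted p = 0.008). Ccna2, the cyclin of S phase and G2, stood at 25.6, 31.5, 24.2 and 37.3 FPKM and rose by 0.48 (SE 0.127, adjusted p = 0.00806). In each of the 3, both run 2 libraries lay above both of run 1. Ccnb2, the most abundant of the group, stood at 31.1, 38.4, 29.6 and 36.9 FPKM and did not pass. Plk1 also had the smallest genotype p of all 59 genes. The Gata3(g/g) library was lower by 0.38 in each run, although the genotype ranges overlapped because of the run change. Its blocked difference was -0.38 (SE 0.130, 95% interval -0.66 to -0.11), with an adjusted p of 0.0939. Leaving out each of the 4 libraries, without the block, gave -0.71 to -0.05, a range into which its run change enters.

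Genes of the chromosomal passenger complex, which corrects faulty attachments, and of the spindle checkpoint had the smallest median absolute genotype differences of the role groups (0.022 and 0.025 with the block). The 3 passenger genes lay between 0.00 and 0.05 with the block, each negative in run 1 and positive in run 2. Birc5, which encodes survivin, stood at 65.7, 63.4, 58.9 and 70.9 FPKM. Cdca8, which encodes borealin of the same complex, stood at 61.7, 37.3, 56.8 and 43.3 FPKM and fell between the runs by 0.54 (SE 0.128, adjusted p = 0.00389), against the direction of most G2/M genes. Its genotype difference was 0.05 (adjusted p = 0.871), and -0.28 to 0.40 without the block as each of the 4 libraries was left out. Of the checkpoint kinases, Bub1b stood at 24.4, 19.2, 22.7 and 19.8 FPKM and Ttk at 4.67, 4.62, 5.06 and 5.09 FPKM, a blocked difference of 0.13 for Ttk (adjusted p = 0.694). None of the 3 checkpoint genes passed between the runs.

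The anaphase-promoting complex marks cyclin B and securin for destruction. Cdc20, its activator in mitosis, stood at 18.4, 8.08, 15.9 and 12.7 FPKM and fell between the runs by 0.72 (SE 0.174, adjusted p = 0.00437), the largest fall of any G2/M gene. The change was -1.15 in WT and -0.32 in Gata3(g/g), and WT replicate 2 was the lowest library. Ube2c, the ubiquitin-conjugating enzyme that works with the complex, stood at 56.3, 65.9, 45.4 and 57.1 FPKM. It did not pass between the runs, and its blocked genotype difference was -0.26 (SE 0.131, adjusted p = 0.282). With each of the 4 libraries left out and no block, it ranged from -0.42 to -0.11.

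Spindle genes were split. Tpx2, which activates Aurora A on the spindle, stood at 26.2, 43.7, 24.8 and 36.1 FPKM and rose between the runs by 0.66 (SE 0.126, adjusted p = 0.000789). Kif11, the motor that pushes the poles apart, stood at 17.5, 21.8, 16.9 and 23.9 FPKM and rose by 0.43 (SE 0.122, adjusted p = 0.0117). Nusap1, a microtubule-bundling protein, went the other way, at 29.5, 19.7, 30.3 and 24.6 FPKM, a fall of 0.42 (SE 0.126, adjusted p = 0.0171). All 3 had runs that did not overlap. The genotype difference of Nusap1 was 0.18 with the block (adjusted p = 0.445), and -0.083 to 0.45 without it as each of the 4 libraries was left out.

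At the kinetochore, 3 of 6 genes rose between the runs. Cenpf, a large outer kinetochore protein, stood at 9.16, 11.7, 10.02 and 15.3 FPKM and rose by 0.51 (SE 0.126, adjusted p = 0.00549). Nuf2 and Ndc80, which pair in the complex that grips microtubules, rose by 0.50 (SE 0.142, adjusted p = 0.012) and 0.39 (SE 0.135, adjusted p = 0.0357). Nuf2 stood at 9.32, 11.5, 8.74 and 13.8 FPKM, and Ndc80 at 14.0, 17.4, 13.8 and 18.6 FPKM. Spc25, of the same complex and the most abundant here, stood at 44.7, 56.6, 45.4 and 62.5 FPKM without passing. Cenpf had the most positive genotype difference of all 59 genes, 0.26 with the block (SE 0.126, adjusted p = 0.243), and its 95% interval began just below 0. It was higher in Gata3(g/g) in both runs, and ranged from -0.061 to 0.57 without the block as each of the 4 libraries was left out.

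Mki67, which coats mitotic chromosomes and is the standard proliferation marker, stood at 90.6, 159, 93.7 and 170.3 FPKM, from 35478, 43123, 48788 and 59813 fragments. It rose by 0.86 between the runs (SE 0.176, adjusted p = 0.00135), by 0.85 in WT and 0.88 in Gata3(g/g), and this was the largest rise of the 59. Within each run the WT and Gata3(g/g) libraries lay close together. Top2a, the topoisomerase that untangles sister chromatids, stood at 73.3, 81.6, 78.3 and 95.3 FPKM, and did not pass between the runs. Its blocked genotype difference was 0.16 (adjusted p = 0.609), and 0.012 to 0.31 without the block as each of the 4 libraries was left out.

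CHR elements were in the windows of 8 G2/M genes, of which Kif11 and Mki67 rose between the runs and Cdc20 fell, while 5 of the 18 without rose and 2 fell. The windows of those 3 show the motifs in genes that moved in opposite directions, with CHR and CCAAT matches on either strand in capitals. They are Mki67 at chr7:135716380-135716629 (minus strand), Kif11 at chr19:37376132-37376381 (plus strand) and Cdc20 at chr4:118437344-118437593 (minus strand), from RefSeq on GRCm38.p6.
Mki67: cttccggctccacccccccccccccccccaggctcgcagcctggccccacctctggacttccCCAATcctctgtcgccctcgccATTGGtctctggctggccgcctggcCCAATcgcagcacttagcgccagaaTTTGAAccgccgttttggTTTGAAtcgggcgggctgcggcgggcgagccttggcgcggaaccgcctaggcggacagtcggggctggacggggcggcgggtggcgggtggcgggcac
Kif11: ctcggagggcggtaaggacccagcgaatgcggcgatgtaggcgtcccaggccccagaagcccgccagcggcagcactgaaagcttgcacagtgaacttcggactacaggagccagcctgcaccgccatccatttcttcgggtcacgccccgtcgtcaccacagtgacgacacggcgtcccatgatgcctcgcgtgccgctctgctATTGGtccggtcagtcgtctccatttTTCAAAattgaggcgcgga
Cdc20: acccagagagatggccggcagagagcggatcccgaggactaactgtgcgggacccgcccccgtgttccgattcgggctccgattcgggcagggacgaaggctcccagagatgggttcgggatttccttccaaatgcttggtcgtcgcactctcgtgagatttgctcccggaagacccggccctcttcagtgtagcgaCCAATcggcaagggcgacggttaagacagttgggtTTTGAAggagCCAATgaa
Mki67 holds 2 CHR and 3 CCAAT matches, Kif11 holds 1 of each, and Cdc20 holds 1 CHR and 2 CCAAT matches. These 3 genes were picked for holding a CHR and passing between the runs. Whether either motif goes with the direction was not tested.

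Of 122 other genes of replication and mitosis, 121 passed the filter. Between the genotypes 3 passed with the block, and none without it: 1 of 49 replication genes (2.04%) and 2 of 72 mitosis genes (2.78%), against 6.9% of all genes. Prim2, the large subunit of primase, stood at 29.9, 28.8, 46.4 and 57.0 FPKM and rose by 0.81 in Gata3(g/g) (SE 0.129, adjusted p = 0.000693), with both Gata3(g/g) libraries above both of WT. Its partner Prim1, one of the 59, did not pass. Mis12, a kinetochore scaffold, rose by 0.54 (SE 0.140, adjusted p = 0.0268), at 11.0, 5.02, 14.7 and 7.94 FPKM. Cks1b, a CDK-binding subunit, fell by 0.54 (SE 0.139, adjusted p = 0.0275), at 33.0, 60.3, 24.0 and 39.4 FPKM. For Prim2 the blocked adjusted p was 0.00018 with DESeq2 and 0.151 with limma, and Mis12 and Cks1b passed with neither. Leaving out each of the 4 libraries, without the block, gave 0.66 to 0.96 for Prim2, 0.0034 to 1.15 for Mis12 and -0.95 to -0.054 for Cks1b. The run changes of Mis12 and Cks1b, given below, enter their ranges.

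Between the runs, of 49 other replication genes, 12 (24.5%) were lower in run 2 and 6 (12.2%) higher, and of 72 other mitosis genes 18 (25%) were higher and 8 (11.1%) lower, beside 17.3% lower and 17.5% higher over all genes. The largest rises were in Casc5, another kinetochore scaffold, by 1.43 (5.06, 13.3, 5.94 and 15.9 FPKM), in the kinesin Kif18a by 1.21, in the cohesin protector Sgol2 by 1.12, in the cytokinesis kinase Cit by 1.04 and in Cks1b by 0.78. The largest falls were in Mis12 by 0.98, in the histone mRNA-binding gene Slbp by 0.98, in the phosphatase gene Cdc25a by 0.89, in the clamp-loader subunit Rfc1 by 0.88 and in the mitotic kinase gene Pbk by 0.87. Mis12 and Pbk, both on the mitosis list, fell.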

How the data were processed

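The 4 libraries of DN3 thymocytes were analysed. The submitters' processing notes name mm10, Cuffdiff 2.1.1, TopHat2 2.0.8b and Bowtie2 2.1.0. Per the labels' protocols RNA was column-purified with DNase and libraries made with a NuGEN Encore Complete kit. The gene annotation behind the counts, and any use of strand, were not given in the sources used here. Per the file headers, the authors deposited an estimated count of fragments and an FPKM value per gene and library, and a comparison table with mean FPKM, p-value and q-value of each gene. Estimated counts were rounded (per library, 97.7% to 98.9% were whole to within 0.01). Of 23285 genes, 3 that Cuffdiff marked as too deep were dropped, and 5 values it marked as failed stayed in. With these depths 3 fragments are 0.112 to 0.209 CPM (counting error only).

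Genes with a mean of at least 1 FPKM (10224) were tested with edgeR 4.0.16 (R 4.3.3), a quasi-likelihood F test, TMM scaling and Benjamini-Hochberg adjustment over all tested genes at 0.05, two-sided, with genotype alone. The block, or run, fit adds the replicate number, which the labels' sequence identifiers tie to a shared run. The run change in WT correlated with that in Gata3(g/g) at 0.754 across 10224 genes (0.864 across the 59). The run comparison is run 2 minus run 1 with genotype as a term. SE is the unshrunken log2 fold change over the root of F, and intervals use that value with the t quantile. Within-run differences are log2 CPM with a prior count of 2. Alternatives were DESeq2 1.42.0, limma 3.58.1 on log2(FPKM + 1) and log2(FPKM + 0.1), other scalings and filters, and each library left out. The scripts were tested on simulated data.

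The members and lists were chosen with earlier results of these data known. Per role, genes named with values were up to 3 with the largest run change among those that passed, the most abundant, and the one with the largest blocked genotype difference; of the other replication and mitosis genes, those that passed, at most 5 a direction.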

Additional observations from a re-analysis of the deposited data

How the results depend on the processing

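Between the genotypes, 0 genes of 10224 passed without the block (393 at an unadjusted p under 0.05). The replicate block gave 705. Without the block, DESeq2 gave 88, no filter 58 and limma 5 at either pseudocount. With the block, DESeq2 gave 417, limma 18, scaling by total fragments 695, no filter 988 and a mean of at least 5 FPKM 348. Leaving out 1 library gave 1 to 11. The 59 genes held 0 calls under each of these. The S-phase median then ranged from -0.21 to 0.049 and the G2/M median from -0.15 to 0.16. Leaving out WT replicate 1 turned both medians, to 0.049 and -0.028, and leaving out Gata3(g/g) replicate 2 turned the G2/M median, to -0.15. These fits, and the ranges that follow, set 1 genotype from 1 run beside the other from both, so the run change enters them. The difference of Gins1 ranged from -0.51 to 0.10, that of Cdca8 from -0.28 to 0.40, that of Nusap1 from -0.083 to 0.45 and that of Cenpf from -0.061 to 0.57.

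Between the runs, 3560 genes passed. DESeq2 gave 2263, limma 1451 with a pseudocount of 1 and 1745 with 0.1, and the run alone 751. Of the 59, limma called 8 at either pseudocount and the run alone 2. Without the filter the medians were -0.40 and 0.10, which is -0.23 and 0.27 relative to all genes. Leaving out a library with genotype as a term leaves no residual degree of freedom and could not be fitted, so the run alone was fitted instead, chosen after seeing the data: 82 to 1536 genes passed, and 0 to 6 of the 59. The cause of these changes was not tested. Depth limits the least abundant genes, Nek2, Ccne2 and Ccne1, most.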

Other observations

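Transcript length and base composition moved with both comparisons, and their part in the differences was not tested. Over the 8869 of 10224 tested genes with a matched coding transcript in GENCODE, the Spearman correlation of the run change was 0.22 with length and -0.10 with GC content, and that of the blocked genotype difference was 0.14 and -0.26. Over the 59 genes of replication and mitosis, all with a value, the run change gave 0.13 and -0.32, and the genotype difference 0.25 and -0.46. Within the phases, the run change gave -0.14 with length and -0.21 with GC content for the S-phase genes, and 0.27 and -0.12 for the G2/M genes, so the sign for length differed. The genotype difference gave 0.19 and -0.35 for S phase, and 0.24 and -0.47 for G2/M. These are correlations across genes, which share their libraries and are not independent replicates.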
